A study of Homo sapiens with 9 samples.

Results

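The epidermal growth factor (EGF) receptor family was followed in the human hepatoma line Huh-7 and in 2 knockout clones made from it. Its members were chosen by name, 10 of the 58735 genes in the files, namely the receptors EGFR, ERBB2, ERBB3 and ERBB4, the ligands AREG, EREG, HBEGF, TGFA and BTC, and the receptor inhibitor ERRFI1. Messenger RNA was sequenced from 3 libraries of each of 3 groups, which were unedited Huh-7 cells (control, genotype WT), the clone Ako-3 with a knock out of APOB, the structural protein of hepatic lipoproteins, and the clone Mko-3 with a knock out of MTTP, the protein that loads lipid onto it. Ako-3 came from cells electroporated with Cas9 and 3 guide RNAs against exon 6 of APOB, and Mko-3 had been made in earlier work. Each knockout genotype is 1 clone, so an effect of the knockout and a property of the clone cannot be told apart. Cells of all groups were grown in medium with serum, taken near confluence, and left overnight without serum before RNA extraction.

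The receptors of this family are membrane tyrosine kinases that pair when a ligand binds. EGFR binds AREG, EREG, HBEGF, TGFA and BTC, while ERBB4 also binds some of them, ERBB2 has no known ligand and serves as a partner, and ERBB3 has weak kinase activity and relies on its partners. The ligands are made as membrane precursors and released by ADAM proteases, and the paired receptors signal through the RAS-ERK and PI3K-AKT pathways. ERRFI1 (also called MIG6) binds the kinase domain of the receptors and blocks it, and its gene is itself induced by growth factors. In liver, EGFR signalling is known for its part in hepatocyte growth and regeneration, and AREG is induced when liver is injured.

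AREG and EREG are neighbours on chromosome 4, and together with ERRFI1 they were the members called lower in Ako-3 cells. The 250 bases before the start of each are shown for that reason, taken from RefSeq on GRCh38.p14, 5′ to 3′ on the strand of the gene. The EREG call rested on few counts, at most 16 in a control library and 3 in an Ako-3 library. Capitals mark the letters TGACG on either strand, which are the core of a cAMP response element (CRE), and TATAAA. The AREG window lies at chr4:74444886-74445135 on the plus strand, the EREG window at chr4:74364895-74365144 on the plus strand, and the ERRFI1 window at chr1:8026310-8026559 on the minus strand.
AREG: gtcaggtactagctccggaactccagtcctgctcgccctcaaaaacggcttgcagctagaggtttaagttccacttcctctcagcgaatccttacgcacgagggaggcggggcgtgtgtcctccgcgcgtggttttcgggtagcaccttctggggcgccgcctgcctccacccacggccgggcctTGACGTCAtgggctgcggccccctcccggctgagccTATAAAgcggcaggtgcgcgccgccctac
EREG: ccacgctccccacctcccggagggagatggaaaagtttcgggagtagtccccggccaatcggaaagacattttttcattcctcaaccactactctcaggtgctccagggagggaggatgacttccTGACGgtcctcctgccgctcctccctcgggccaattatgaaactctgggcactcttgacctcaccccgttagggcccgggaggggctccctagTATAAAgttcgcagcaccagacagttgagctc
ERRFI1: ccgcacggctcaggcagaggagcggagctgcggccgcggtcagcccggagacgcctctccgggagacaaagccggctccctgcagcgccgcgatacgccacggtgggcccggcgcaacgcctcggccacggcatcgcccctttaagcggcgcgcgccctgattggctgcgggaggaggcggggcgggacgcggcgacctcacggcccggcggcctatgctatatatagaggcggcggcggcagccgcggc

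The AREG window held the full CRE letters TGACGTCA at bases -65 to -58 from the start, a run that was present in 1.65% of the 35116 RefSeq windows of the same length. The core TGACG, which the full CRE letters contain on both strands, was present in 21.2% of all windows and stood in EREG at bases -125 to -121. TATAAA was found in 10.7% of all windows and began at base -29 in AREG and at base -32 in EREG. None of these letters stood in the ERRFI1 window, which was 75.2% G and C. The GC box letters GGGCGG, present in 42.6% of all windows, stood in ERRFI1 at bases -70 to -65 and, on the other strand, in AREG at bases -9 to -4. The AP-1 letters TGANTCA, present in 6.57% of windows, stood in none of the 3 windows, and the TEAD letters GGAATG, present in 11.9%, stood in the EREG window alone of the 3. Each motif was searched on both strands, and a match says only that the letters are there. Variants of the letters, such as the TATATATA near the end of the ERRFI1 window, were not searched for.

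Total counts per library ranged from 14638727 to 20179760, and intervals on counts cover counting error only. The libraries of a group differed by more than sampling noise, and their labels call them biological replicates without saying whether they came from separate cultures, so p-values measure the spread between these libraries. The labels name no batch, so any batch of preparation and the group cannot be told apart. Counts of mitochondrially encoded genes made up 5.52% to 6.17% of the control libraries, 7.06% to 7.40% of the Ako-3 libraries and 5.75% to 5.82% of the Mko-3 libraries, and the part of this in the results was not tested. All 10 hepatocyte lineage markers were detected at over 1 FPKM (fragments per kilobase, scaled to library size), with a summed level of 5190 to 5357 FPKM in control, 6228 to 6514 in Ako-3 and 5104 to 5348 in Mko-3 cells. On the log2 scale in Mko-3 cells ALB (-0.49), APOA1 (-0.43) and APOH (-0.54) fell, while AFP (0.80), TTR (0.60) and HNF4A (0.30) rose. In Ako-3 cells ALB (0.02) and FGB (-0.13) did not pass the adjusted p, and the others rose, by up to 1.23 (APOH). The part of this in the results was not tested. None of the 5 fibroblast or 4 leukocyte markers reached 1 FPKM. Of 4 cholangiocyte markers 3 did, with a sum of 120 to 128 FPKM in control, 118 to 124 in Ako-3 and 166 to 171 in Mko-3 cells, while KRT7 was at 0 in every library. These 3 did not move alike, since KRT19 was at 9.43, 13.4 and 71.9 CPM (counts scaled to library size with TMM factors, group means of control, Ako-3 and Mko-3 cells), EPCAM at 80.6, 128 and 183 CPM, and SOX9 at 350, 258 and 265 CPM, and the part of this in the results was not tested. Of 3 endothelial markers PECAM1 and CDH5 did, with a sum over the list of 9.86 to 11.3, 13.5 to 14.6 and 7.30 to 7.97 FPKM in the same order, while VWF had 0 to 5 counts. The labels were checked on the targeted genes. APOB RNA fell by 1.36 on the log2 scale in Ako-3 cells (SE 0.13, edgeR quasi-likelihood adjusted p = 7.1e-05) and was present at 1316 ± 91.4 CPM (SD, n = 3). MTTP RNA fell by 2.88 in Mko-3 cells (SE 0.07, adjusted p = 9.4e-19).

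The order of the members by level was read from the deposited FPKM, which are per length. In control cells ERRFI1 stood highest at 163 ± 4.10 FPKM (SD, n = 3), followed by ERBB3 at 31.6 ± 1.38, EGFR at 24.7 ± 2.04, ERBB2 at 23.4 ± 0.25 and AREG at 14.9 ± 4.82. HBEGF at 0.514 ± 0.103, BTC at 0.396 ± 0.046, EREG at 0.123 ± 0.023 and ERBB4 at 0.0167 ± 0.021 were far lower, and TGFA was listed at 0 in all 9 libraries. The libraries of EGFR and ERBB2 overlapped, as did those of HBEGF and BTC, and every other pair of neighbours in this order was separated. In Ako-3 cells ERBB2 (28.4 ± 0.44 FPKM) stood above EGFR (24.9 ± 1.23) without overlap, and in Mko-3 cells EGFR (27.7 ± 0.45) stood above ERBB2 (23.4 ± 0.78). The 3 receptors other than ERBB4 were thus within a narrow band of level in every group. AREG was the highest of the 5 member ligands in each group. It made up 89.7% to 94.9% of the summed FPKM of these 5 in control libraries, 78.1% to 83.3% in Ako-3 libraries and 93.3% to 94.6% in Mko-3 libraries. Ligands outside the members, such as EGF, are not in this sum. The sum was 15.9 ± 4.81 FPKM in control, 3.51 ± 0.49 in Ako-3 and 14.8 ± 2.16 in Mko-3 cells.

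**Figure D1:**
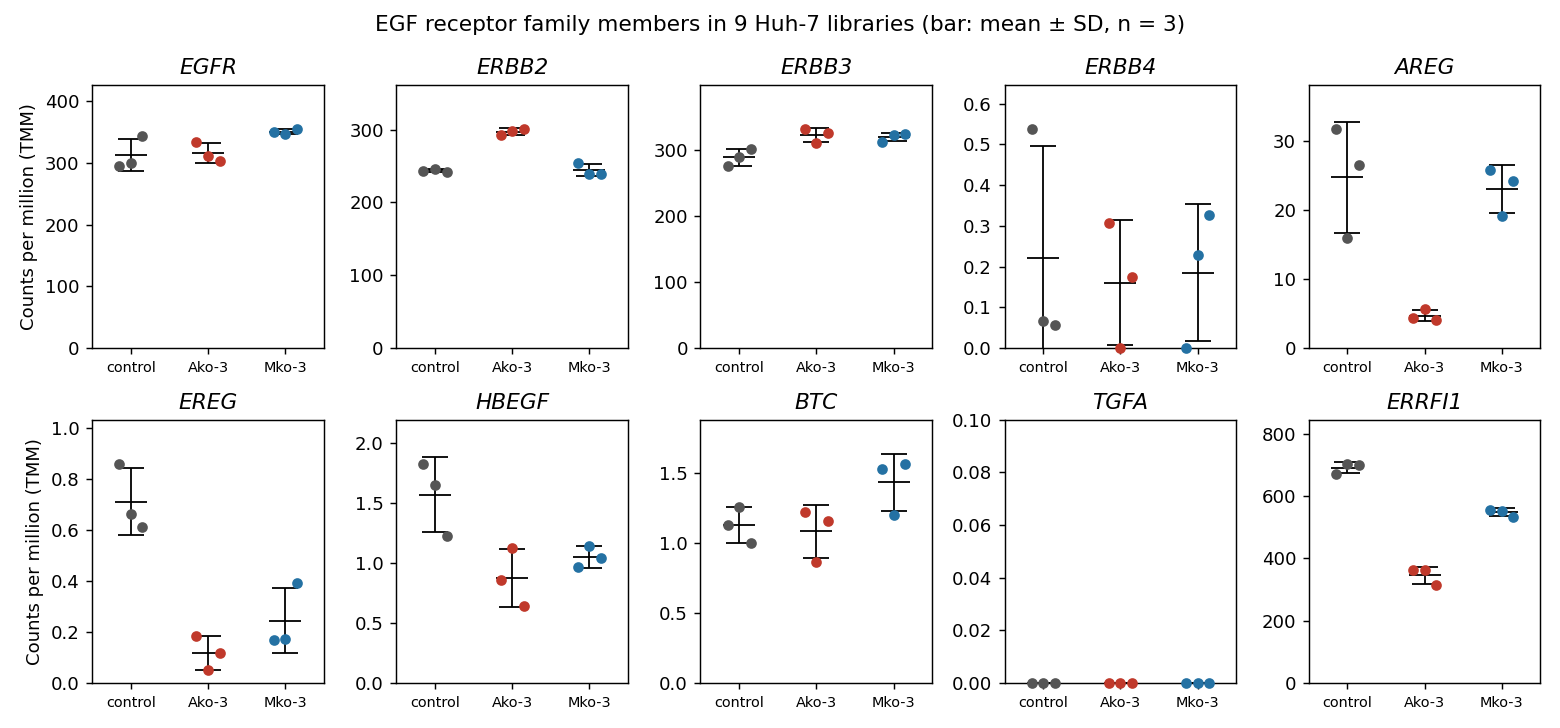
Level of each member in CPM (TMM scaled, vertical axis from 0) in the 3 libraries of control, Ako-3 and Mko-3 cells, with the mean and SD as a bar and whiskers; each panel has its own scale. AREG lay between 4.12 and 5.66 CPM in Ako-3 libraries and between 16.0 and 31.8 CPM in the other 6, while EGFR, ERBB2 and ERBB3 differed little between groups.

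The first comparison asked which members differed between Ako-3 and control cells. AREG and EREG, ligands of EGFR, and ERRFI1, the inhibitor of the receptors, were lower in Ako-3 cells past both thresholds of the call, a log2 fold change of at least 1 in size and an adjusted p of at most 0.05. HBEGF fell by a smaller amount, ERBB2 and ERBB3 rose slightly, and EGFR and BTC did not pass the adjusted p. Of the 10 members 8 passed the filter on low counts and were tested. EREG passed it through the control group alone, so the counts are given over the other 7. Of these 2 were called lower, against 5% of the 15787 genes tested, of which 3.52% were called higher. At the adjusted p alone, 3 of the 7 fell and 2 rose, against 24.4% and 25.5% of all genes tested. Libraries of the 2 groups did not overlap for 5 of the 7, against 57.8% of all genes tested. The median log2 fold change of the 7 was -0.07, against -0.0087 over all genes tested.

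AREG (amphiregulin; ENSG00000109321, chromosome 4, 74445134 to 74455009, plus strand) had 31.8, 16.0 and 26.6 CPM in control libraries 1, 2 and 3, and 4.40, 5.66 and 4.12 CPM in the Ako-3 libraries. The highest Ako-3 library thus lay below the lowest control library, though control library 2 stood apart from the other two. AREG fell by 2.40 on the log2 scale (SE 0.27, 95% interval -3.01 to -1.78, adjusted p = 1.1e-04), to a fitted fold of 0.190 of control. The levels behind this were 24.8 ± 8.05 CPM in control and 4.73 ± 0.82 in Ako-3 cells (SD, n = 3). In bulk RNA, fewer expressing cells and less RNA per cell cannot be told apart.

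EREG (epiregulin; ENSG00000124882, chromosome 4, 74365143 to 74388751, plus strand) was a rare RNA, with 16, 10 and 11 counts in control libraries and 3, 1 and 2 counts in Ako-3 libraries. The gene passed the filter through the control group alone, and the Ako-3 libraries were at or under the floor of 3 counts per library. The summed counts, 6 against 37, gave a ratio of Ako-3 to control of 0.158 (95% exact counting interval 0.0544 to 0.377). The adjusted p was 1.2e-03. The interval covers sizes from 2.66-fold to 18.4-fold lower.

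ERRFI1 (ENSG00000116285, chromosome 1, 8004404 to 8026308, minus strand) was an abundant RNA. Its level was 672, 704 and 698 CPM in control libraries and 361, 361 and 314 CPM in Ako-3 libraries, with no overlap and a small spread in each group. It fell by 1.01 on the log2 scale (SE 0.06, 95% interval -1.14 to -0.88, adjusted p = 9.0e-11), so that the value sits on the fold threshold of the call. Without control library 2, control library 3 or Ako-3 library 3 it was -0.995, -0.999 and -0.94, each just short of that threshold with the adjusted p still passed.

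HBEGF (heparin-binding EGF-like growth factor; ENSG00000113070, chromosome 5) had 34, 25 and 22 counts in control and 14, 22 and 11 counts in Ako-3 libraries. On the CPM scale the 2 groups did not overlap, with the lowest control library at 1.22 and the highest Ako-3 library at 1.12. HBEGF fell by 0.84 on the log2 scale (SE 0.34, adjusted p = 0.046). This pass was lost without control library 1 (adjusted p = 0.157), control library 2 (0.084), Ako-3 library 1 (0.111) or Ako-3 library 3 (0.181), and with DESeq2 (0.098). BTC (betacellulin; ENSG00000174808, chromosome 4), with 18 to 21 counts in control and 17 to 20 in those of Ako-3, gave a change of -0.07 on the log2 scale (95% interval -0.77 to 0.63, adjusted p = 0.878), an interval that leaves room for a change in either direction. TGFA (transforming growth factor alpha) was not tested. Its 0 counts in every library allow at most 3 counts, or 0.153 to 0.198 CPM depending on the library.

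Among the receptors, ERBB2 (ENSG00000141736, chromosome 17) had 244, 246 and 242 CPM in control libraries and 293, 298 and 301 CPM in Ako-3 libraries. It rose by 0.28 on the log2 scale (SE 0.06, adjusted p = 4.4e-04), a fold of 1.21 that was larger than the spread between libraries. ERBB3 (ENSG00000065361, chromosome 12), at 276, 288 and 302 CPM in control and 332, 311 and 326 CPM in Ako-3 libraries, rose by 0.15 (SE 0.06, adjusted p = 0.042). That pass was lost without control library 1 and without any 1 of the Ako-3 libraries (adjusted p from 0.051 to 0.140). EGFR (ENSG00000146648, chromosome 7), the receptor that binds AREG and EREG, had 295, 299 and 343 CPM in control and 333, 311 and 303 CPM in Ako-3 libraries. The groups overlapped, and the 95% interval of its log2 fold change ran from -0.13 to 0.15 (adjusted p = 0.946). ERBB4 (ENSG00000178568, chromosome 2) had 10, 1 and 1 counts in control and 5, 0 and 3 counts in Ako-3 libraries and was not tested.

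The second comparison asked the same of Mko-3 cells. ERRFI1 fell by less than the fold threshold, EGFR rose slightly, and AREG did not pass the adjusted p. EREG was called lower, but it passed the filter through the control group alone here too, and it is left out of the counts that follow. Of the other 7 members tested, 0 were called with edgeR and 0 with DESeq2, while 3 had an unadjusted p under 0.05. Of the 15745 genes tested 7.22% were called lower and 3.82% higher. At the adjusted p alone 1 of the 7 fell and 1 rose, against 27.1% and 26.9% of all genes, so the counts do not set the family apart. Libraries did not overlap for 4 of the 7, against 60.7% of all genes, and the median log2 fold change was -0.0087, against -0.0108 over all genes. Both comparisons used the same control libraries.

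AREG had 25.9, 19.2 and 24.2 CPM in Mko-3 libraries, all inside the range of the control libraries. Its log2 fold change was -0.12 (95% interval -0.79 to 0.55, adjusted p = 0.733), a wide interval. Without control library 2 the value was -0.34 (adjusted p = 0.012). EREG had 3, 3 and 6 counts in Mko-3 libraries, and the ratio of summed counts to control was 0.333 (12 against 37 counts, 95% exact counting interval 0.158 to 0.652). Its fit gave an adjusted p of 0.015, which rose to 0.065 without control library 1, to 0.074 and 0.076 without Mko-3 libraries 1 and 2, and to 0.057 with DESeq2.

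ERRFI1 had 556, 552 and 532 CPM in Mko-3 libraries, below every control library and above every Ako-3 library. It fell by 0.35 on the log2 scale against control (SE 0.06, adjusted p = 1.9e-05). HBEGF, with 17, 20 and 16 counts, had a log2 fold change of -0.58 (95% interval -1.25 to 0.09, adjusted p = 0.133). BTC, with 27, 21 and 24 counts, had 0.33 (95% interval -0.33 to 1.00, adjusted p = 0.394), and TGFA was again at 0.

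EGFR had 350, 346 and 355 CPM in Mko-3 libraries, above all 3 control libraries, and rose by 0.15 on the log2 scale (SE 0.06, adjusted p = 0.047). The pass was lost in 5 of the 6 fits that left out 1 library, all but that without control library 3 (adjusted p from 0.056 to 0.124). ERBB2 (254, 239 and 240 CPM) had a log2 fold change of -0.0087 with a 95% interval of -0.13 to 0.11. ERBB3 (312, 322 and 323 CPM) had 0.13 (SE 0.06, adjusted p = 0.058). ERBB4 had 0, 4 and 5 counts and was not tested.

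**Figure D2:**
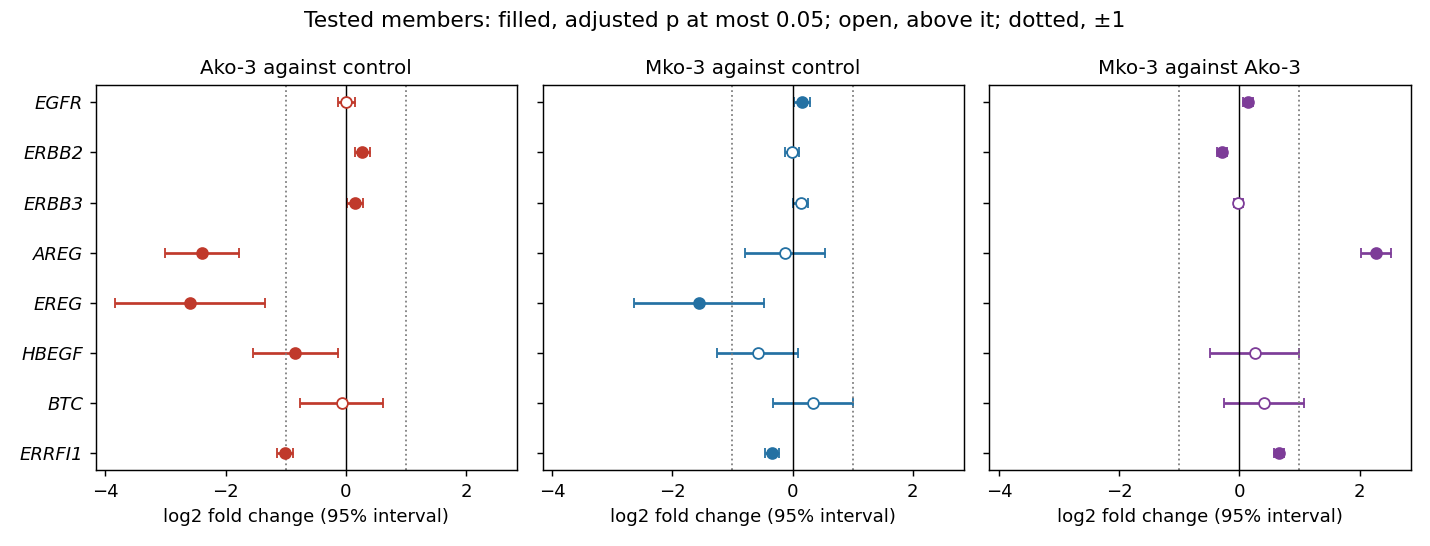
Log2 fold change of each tested member in the 3 comparisons, with its 95% interval from the edgeR fit; filled points passed an adjusted p of 0.05 and dotted lines mark the fold threshold of 1. AREG lay at -2.40 in Ako-3 and at -0.12 in Mko-3 cells, and at 2.28 between the clones.

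Whether the clones differ from each other was tested directly, without the control libraries. AREG was 4.84-fold higher in Mko-3 than in Ako-3 cells, the 1 member called, by 2.28 on the log2 scale (SE 0.13, 95% interval 2.02 to 2.53, adjusted p = 1.1e-25). The lowest Mko-3 library had 19.2 CPM and the highest Ako-3 library 5.66 CPM, so the groups were well separated. ERRFI1 was higher in Mko-3 cells by 0.66 (SE 0.04, adjusted p = 8.9e-22), and EGFR by 0.15 (SE 0.04, adjusted p = 1.9e-03), while ERBB2 was lower, at -0.29 (SE 0.04, adjusted p = 1.7e-08). The libraries of these 4 members did not overlap between the clones, which held for 49.6% of all genes tested. The pass of EGFR was lost with all 9 libraries in 1 fit (edgeR adjusted p = 0.0504). ERBB3 (-0.02, 95% interval -0.10 to 0.06), HBEGF (0.25, -0.49 to 1.00) and BTC (0.41, -0.26 to 1.07) did not pass. EREG did not pass the filter here, and the ratio of its summed counts, Mko-3 over Ako-3, was 2.11 with a 95% exact counting interval of 0.733 to 6.85, so a difference was not detectable at this depth. Of 7 members tested 1 was called higher, against 2.26% of the 15528 genes tested, while 3.47% of genes were called lower. At the adjusted p alone 3 rose and 1 fell, against 21.1% and 20.6% of genes. The median was 0.25, against 0.0048 over all genes.

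AREG, EREG and BTC lie within 429544 bases of chromosome 4 (74365143 to 74794686), a cluster of ligand genes with a row of CXC chemokine genes beside it. The files hold 17 other genes tested in at least 1 comparison within 1 Mb on either side. In Ako-3 cells 8 of these fell and 3 rose, against 24.4% and 25.5% of all genes tested, and 2 were called, both lower, against 5%, with a median log2 fold change of -0.19. The called neighbours were CXCL8 (interleukin 8), at 125, 123 and 111 CPM in control and 49.8, 49.6 and 48.3 CPM in Ako-3 libraries, and CXCL3, at 23.6, 13.5 and 17.0 CPM in control and 8.68, 7.19 and 9.86 CPM in Ako-3 libraries. CXCL8 fell by 1.29 and CXCL3 by 1.09 on the log2 scale. The study lists CXCL8 and CXCL3 among the lower genes of a pathway it drew from these libraries, so their direction is not independent evidence. The row of chemokine genes did not move alike in Ako-3 cells. CXCL6 rose by 0.79 (edgeR adjusted p = 1.2e-06), short of the fold threshold. CXCL2 (-0.95) and CXCL1 (-0.51) fell without a call, and CXCL5 (-0.14, adjusted p = 0.108) did not pass, these 3 named after their values were seen. BTC, at the far end of the same cluster, had nearly the same level in both groups, so the lower levels did not extend over the whole stretch. In Mko-3 cells 5 of 16 tested neighbours rose and 3 fell, against 26.9% and 27.1% of all genes, and 1 was called higher, against 3.82%, namely CXCL6, at 102, 91.9 and 106 CPM against 52.1, 38.7 and 43.4 CPM in control (log2 fold change 1.15). Between the clones 8 of 17 were higher and 1 lower in Mko-3 cells, against 21.1% and 20.6% of all genes, and CXCL8 (1.31) and CXCL3 (1.06) were called higher, against 2.26%.

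**Figure D3:**
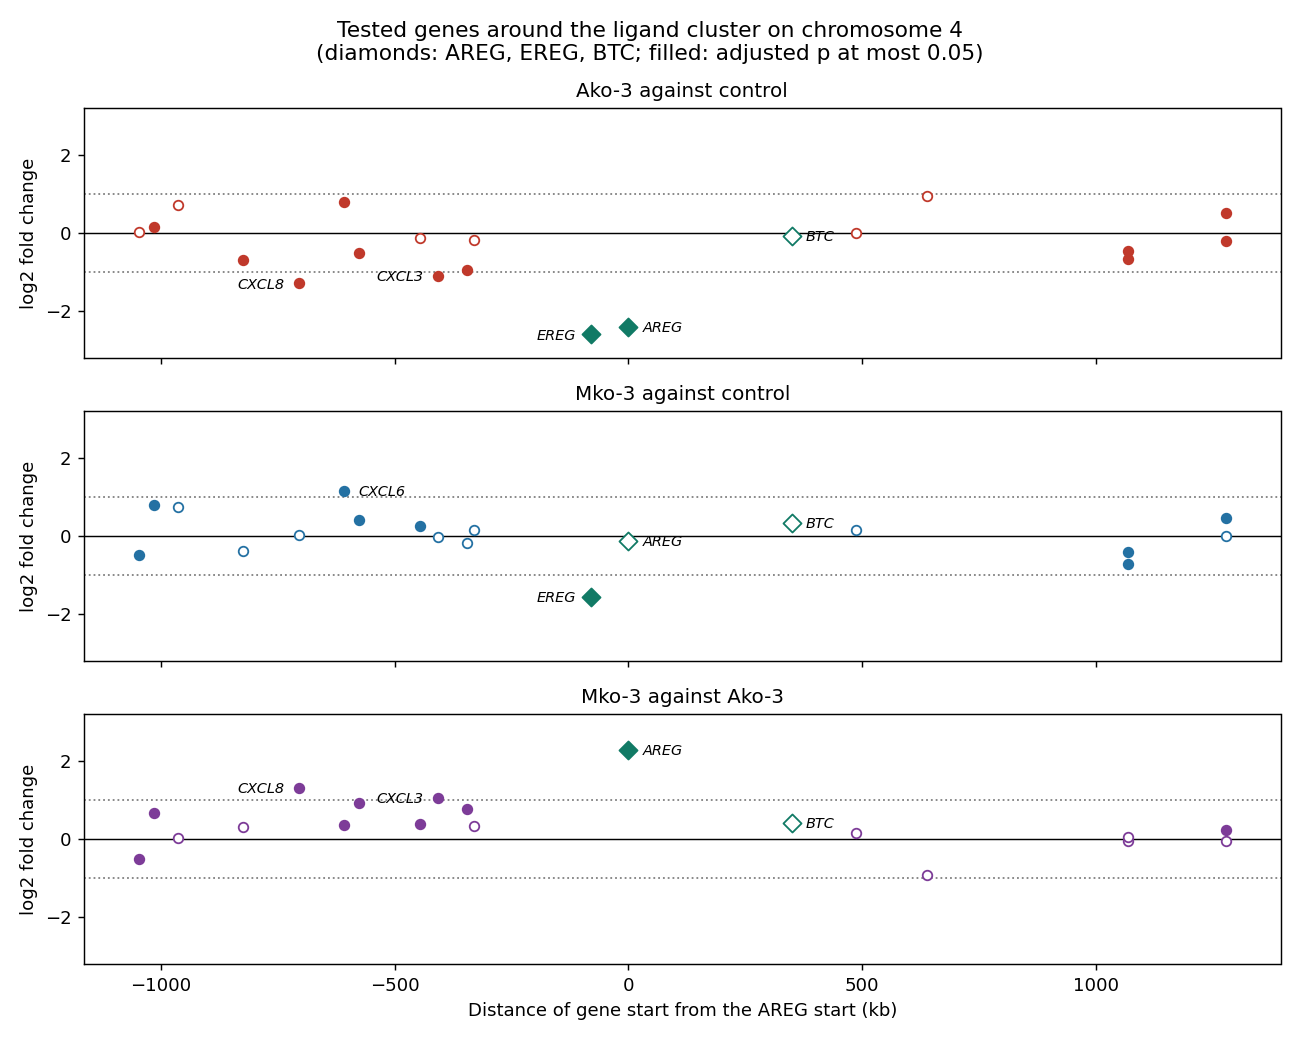
Log2 fold change (vertical axis) of all tested genes around the ligand cluster on chromosome 4 against the distance of the gene start from that of AREG in kb (horizontal axis), 1 panel per comparison; diamonds are AREG, EREG and BTC, filled points passed an adjusted p of 0.05, and names mark members and called genes. In Ako-3 cells AREG (-2.40) lay below all 17 other tested genes outside the 3 ligands, and BTC lay at -0.07. EREG, fitted at -2.59, passed the filter through the control group alone and was at the floor in Ako-3 cells.

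The genes upstream and downstream of the receptors were read as lists. The other ligands of the family come first. Of 6 listed, EGF, NRG3 and NRG4 were tested against control, and 0 of 3 passed the adjusted p in Ako-3 or in Mko-3 cells, with 0 at an unadjusted p under 0.05 in edgeR and 0 past the adjusted p in DESeq2. For EGF the change against control was 0.29 on the log2 scale in Ako-3 cells (95% interval -0.10 to 0.68) and -0.05 in Mko-3 cells (-0.42 to 0.32). The level of EGF was 0.846 ± 0.089 FPKM in control, 1.05 ± 0.26 in Ako-3 and 0.829 ± 0.141 in Mko-3 cells (SD, n = 3), below that of AREG in each group. On the log2 scale NRG3 had -0.0013 and 0.21, and NRG4 had -0.25 and -0.60, with intervals that all held 0.

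Genes of ligand release follow. Of 9 listed, 7 were tested, and 5 fell and 1 rose in Ako-3 cells (median -0.40), while 1 fell and 3 rose in Mko-3 cells (median 0.12). Of all genes tested, 24.4% fell and 25.5% rose in Ako-3 cells, and 27.1% fell and 26.9% rose in Mko-3 cells. TIMP3, an inhibitor of ADAM proteases, had 176, 159 and 164 CPM in control, 108, 106 and 112 in Ako-3 and 82.0, 84.6 and 77.4 in Mko-3 libraries, and fell by 0.62 and by 1.04 on the log2 scale. The second value passed the fold threshold narrowly, and its call was lost with limma on log2(FPKM + 1) and without control library 1 or Mko-3 library 3. FRMD8, which stabilises the iRhom and ADAM17 complex, rose in both, by 0.50 and 0.69. ADAM9, a protease, fell by 0.45 in Ako-3 cells and had 0.12 in Mko-3 cells (adjusted p = 0.087), and the clones differed by 0.57 (SE 0.04, adjusted p = 1.9e-21). Between the clones 6 of the 7 genes were higher in Mko-3 cells and TIMP3 was lower, against 21.1% and 20.6% of all genes.

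Receptor adaptors and genes of receptor downregulation were counted next. The shares to set beside both lists are those of all genes tested. In Ako-3 cells 24.4% fell and 25.5% rose, and in Mko-3 cells 27.1% fell and 26.9% rose. Of 13 adaptors, all tested, 3 fell and 2 rose in Ako-3 cells (median -0.08) and 6 fell and 3 rose in Mko-3 cells (median -0.15). GAB2, a docking protein of the PI3K branch, fell by 0.62 and 0.53, CRK, an adaptor protein, rose by 0.36 and 0.36, and NCK2, another adaptor, rose by 0.71 in Mko-3 cells and had -0.20 in Ako-3 cells (adjusted p = 0.081). Of 17 genes of receptor downregulation 16 were tested, of which 7 fell and 1 rose in Ako-3 cells (median -0.17), and 6 fell and 1 rose in Mko-3 cells (median -0.16). LRIG3, of the LRIG family of membrane regulators of these receptors, fell by 0.81 and 0.90, and RNF41 (NRDP1), a ubiquitin ligase for ERBB3, fell by 0.68 and 0.44. LRIG1, which promotes receptor degradation, fell by 0.61 in Mko-3 cells and had -0.11 in Ako-3 cells (adjusted p = 0.271), a difference between the clones of -0.51 (adjusted p = 1.4e-08). ERBB3 RNA had log2 fold changes against control of 0.15 (adjusted p = 0.042) and 0.13 (adjusted p = 0.058), as given above. A link to RNF41, which acts on the protein, was not tested.

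Of the 13 genes of the RAS-ERK core, 6 fell and 3 rose in Ako-3 cells (median -0.09), and 4 fell and 5 rose in Mko-3 cells (median 0.0174). Beside this list and the next, 24.4% of all genes tested fell and 25.5% rose in Ako-3 cells. In Mko-3 cells these shares were 27.1% and 26.9%. HRAS, a RAS GTPase, rose by 0.66 and 0.78, KSR1, a scaffold of the kinase cascade, fell by 0.90 and 0.57, and MAPK3 (ERK1) fell by 0.21 and 0.54. Of 11 genes of the PI3K-AKT branch 9 were tested, of which 2 fell and 3 rose in Ako-3 cells (median 0.0398) and 3 fell and 3 rose in Mko-3 cells (median -0.06). The share of all genes tested that were called lower was 5% in Ako-3 and 7.22% in Mko-3 cells. PIK3CD, a catalytic subunit, was called lower in both, with 22.0, 17.0 and 19.3 CPM in control, 9.36, 8.46 and 8.35 in Ako-3 and 10.8, 8.86 and 9.67 in Mko-3 libraries (log2 fold changes of -1.17 and -1.004). The Mko-3 value sits on the fold threshold, and its call was lost with RLE size factors, DESeq2, all 9 libraries in 1 fit, the replicate block, both limma fits, and without control library 1 or Mko-3 library 3. The study lists PIK3CD among the lower genes of pathways it drew from these libraries, so its direction is not independent evidence. PIK3R3, a regulatory subunit, rose by 0.66 and 0.99, and PIK3CA, another catalytic subunit, fell by 0.55 and 0.39.

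Genes that ERK signalling is known to induce were mostly lower in Ako-3 cells. Of 18 listed 17 were tested, and 14 fell and 1 rose, against 24.4% and 25.5% of all genes, with a median log2 fold change of -0.64 against -0.0087 over all genes, and 4 were called lower against 5% of genes. JUN, a subunit of AP-1, had 398, 399 and 360 CPM in control and 154, 167 and 160 CPM in Ako-3 libraries and fell by 1.27 (SE 0.06, adjusted p = 3.0e-12). DUSP5, a nuclear ERK phosphatase, had 25.7, 25.4 and 25.9 CPM in control and 8.50, 7.70 and 7.77 CPM in Ako-3 libraries and fell by 1.69 (SE 0.11, adjusted p = 1.2e-10). EPHA2, an ephrin receptor, had 256, 245 and 236 CPM in control and 116, 122 and 119 CPM in Ako-3 libraries and fell by 1.05 (SE 0.06, adjusted p = 3.5e-11). The fourth called gene was MYC, named after its values were seen, which fell by 1.12. The 1 gene that rose was CCND1 (cyclin D1), also named after its values were seen, with a log2 fold change of 0.25. FOS (0.0042) and EGR1 (-0.72), both immediate early genes named in the same way, did not pass. JUN, EPHA2, DUSP5, DUSP1, MYC, AREG and EREG are also in a list that the study drew from these libraries, so their direction is not independent evidence.

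In Mko-3 cells 8 of the 17 fell and 3 rose, against 27.1% and 26.9% of all genes, with a median of -0.09. JUN fell by 0.81 (227, 218 and 222 CPM), while DUSP5 (24.8, 27.3 and 29.0 CPM, log2 fold change 0.06, 95% interval -0.13 to 0.25) and EPHA2 (238, 233 and 252 CPM, -0.04, -0.16 to 0.09) did not pass. Between the clones 14 of 17 were higher in Mko-3 cells, against 21.1% of all genes, with a median of 0.46 against 0.0048 over all genes. DUSP5 (1.76), EPHA2 (1.01) and DUSP4 (1.13), the last named after its values were seen, were called higher, against 2.26%.

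**Figure D4:**
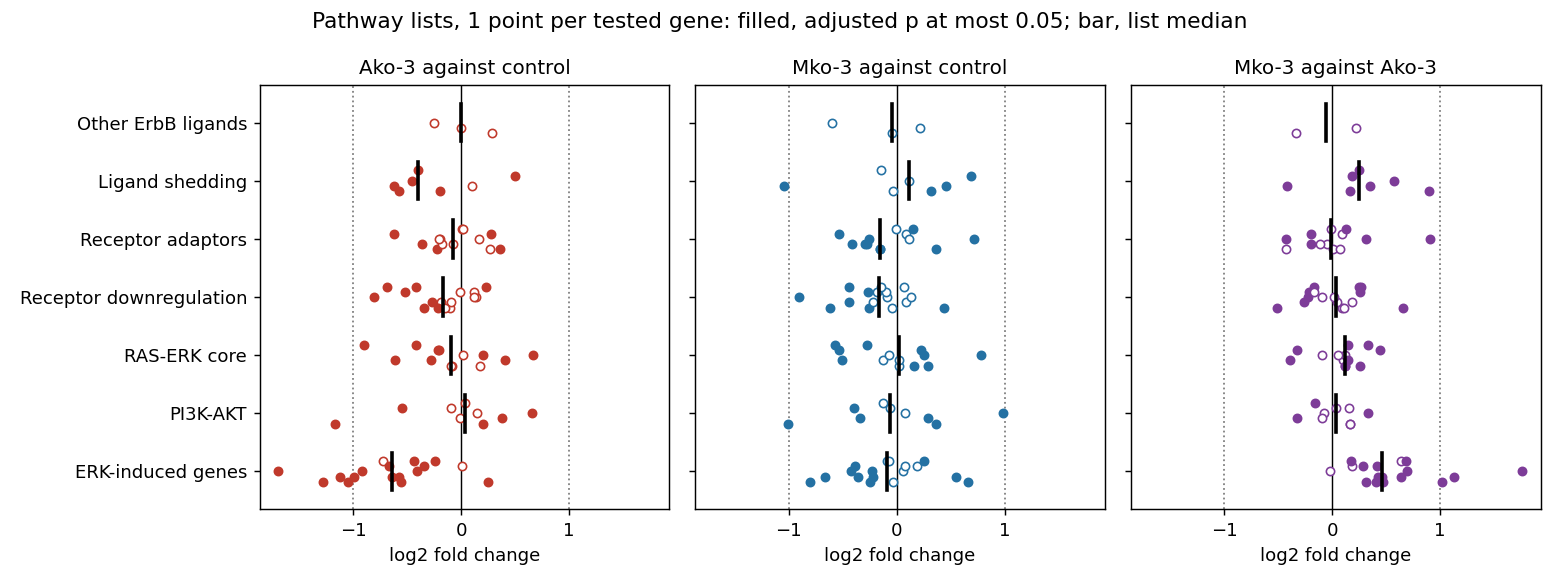
Log2 fold change (horizontal axis) of every tested gene of 7 lists around the EGF receptor family in the 3 comparisons; filled points passed an adjusted p of 0.05, black bars are list medians and dotted lines mark 1. The ERK-induced genes had a median of -0.64 in Ako-3 and -0.09 in Mko-3 cells, and the medians of the other lists lay between -0.40 and 0.25.

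The genes most like each called member were found by the root mean square distance of log2 CPM, centred per gene, over the 9 libraries and 16168 other genes. They are given as a description. Nearest to AREG were UNC5B (distance 0.243), a netrin receptor, ANKRD1 (0.263), a known target of YAP, and SPARC (0.271), a matrix protein. UNC5B was at 37.2 ± 10.6 CPM in control, 6.13 ± 0.26 in Ako-3 and 43.1 ± 3.80 in Mko-3 cells (SD, n = 3), and SPARC at 31.1 ± 4.74, 5.02 ± 1.40 and 27.6 ± 2.26 CPM, both close to the 24.8, 4.73 and 23.1 CPM of AREG in shape. Nearest to ERRFI1 were DUSP1 (0.0846), a MAP kinase phosphatase, SPRY4 (0.0990), an inhibitor of RAS-ERK signalling, and CTGF (0.101), a matricellular protein. DUSP1 stood at 28.5 ± 1.66, 13.4 ± 1.60 and 21.3 ± 1.12 CPM and SPRY4 at 24.2 ± 0.98, 12.3 ± 0.92 and 19.0 ± 0.69 CPM, in the same order of groups as ERRFI1. Among the nearest to EREG were FADS6 (0.243) and ASPHD2 (0.278), both at under 4 CPM in every group.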

How the data were processed

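RNA sequencing of 9 libraries was used, 3 each of control Huh-7, Ako-3 and Mko-3 cells, grouped by the genotype in their labels. The raw counts per gene were made by the authors with HISAT2 2.0.5 on hg38 and featureCounts 1.5.0-p3 and deposited without normalization. The deposited FPKM values were made by the authors from these counts by gene length and a library size set over all 9 libraries. The annotation and the strand setting are not given in the sources used here, so reads of overlapping antisense genes cannot be told apart.

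Counts were tested with edgeR 4.0.16 in R 4.3.3 (TMM, filterByExpr with its minimum count set to 10, the quasi-likelihood F test with robust dispersion, Benjamini-Hochberg adjustment over all genes tested), with the 6 libraries of each comparison in 1 fit. Calls required a log2 fold change of 1 or more in size and an adjusted p of 0.05 or less, the thresholds of the study, and "rose" or "fell" means the adjusted p alone. DESeq2 1.42.0 and limma 3.58.1 on log2(FPKM + 1) and log2(FPKM + 0.1) were among the alternatives. CPM use TMM factors over all libraries. A group at 3 counts or fewer per library was taken as at the floor. Depth was 14638727 to 20179760 counts per library. Counting intervals are exact binomial at 95%.

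Named genes are all members, APOB and MTTP, up to 3 genes per list, taken by smallest adjusted p against control, the 3 nearest profiles of each called member, and called genes within 1 Mb of the chromosome 4 cluster. Of the nearest profiles, 1 is not reported here. Members and lists were chosen with earlier results of these data known. Counts of members without EREG were chosen after seeing the data. Replicate numbers did not pair the libraries. Over the 9 pairs of libraries with the same number in different groups, the correlation of deviations ran from -0.072 to 0.064. Promoter sequences were available for 9 of the 10 members.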

Additional observations from a re-analysis of the deposited data

Results flagged for a closer look

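The direct test of Mko-3 against Ako-3 cells with edgeR found a difference between the clones for 4 members. AREG had a log2 fold change of 2.28 (adjusted p = 1.1e-25, higher in all 3 Mko-3 libraries than in any Ako-3 library), ERRFI1 of 0.66 (adjusted p = 8.9e-22), EGFR of 0.15 (adjusted p = 1.9e-03) and ERBB2 of -0.29 (adjusted p = 1.7e-08). In each of the 4 the libraries of the clones did not overlap, as in 49.6% of all genes tested. AREG alone also passed the fold threshold of 1. With all 9 libraries in 1 fit, EGFR no longer passed (edgeR adjusted p = 0.0504). Groups of 3 libraries are too small to be screened for single outlying libraries.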

How the results depend on the processing

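AREG in Ako-3 cells was lower, with the adjusted p passed, under every alternative run, from -2.62 to -2.18 on the log2 scale when 1 library was left out, and the difference between the clones in AREG held likewise, from 2.18 to 2.44. In Ako-3 cells the number of members called was 1 with limma on log2(FPKM + 1) in place of 3, and 2 to 4 with 1 library left out. In Mko-3 cells the 1 call, EREG, was 0 with DESeq2, with at least 10 counts required in every library, and with limma on either pseudocount, and 0 to 1 with 1 library left out. It was likewise 0 with EREG left out of the members, an alternative chosen after seeing the data, which left 2 in Ako-3 cells. The members past the adjusted p alone in Mko-3 cells were 1 in place of 3 with at least 10 counts in every library and with limma on log2(FPKM + 1), and 1 to 4 with 1 library left out. EREG could not be tested with 10 counts required in every library. Requiring 10 counts in every library gave 841 called genes in Ako-3 cells, 1113 in Mko-3 cells and 511 between the clones, and limma on log2(FPKM + 1) gave 317, 429 and 200, against 1345, 1739 and 890. With limma on log2(FPKM + 1), in which test, scale and pseudocount changed together, the share of higher genes among the called went from 41.3% to 57.4% in Ako-3 and from 34.6% to 48.5% in Mko-3 cells, and with log2(FPKM + 0.1) it was 44.8% and 37.7%. Fitting the replicate number as a block took the adjusted p of ERBB3 in Ako-3 cells to 0.106 and changed no other pass or call of a member, and the numbers do not pair the libraries.

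Values near 0 changed sign, all without a call. In Ako-3 cells EGFR was -0.0031 with 10 counts in every library. NRG3 was 1.8e-05 with RLE size factors, 0.0030 with DESeq2, 0.021 with no filter, 0.0066 with all 9 libraries fitted together, 0.022 with the replicate block, and 0.0090 and 0.033 with limma on the larger and the smaller pseudocount. In Mko-3 cells ERBB2 was 0.024 with no filter, 0.0021 with all 9 libraries, and 0.0029 and 0.0030 with limma on the larger and the smaller pseudocount. With 1 library left out the ranges were, in Ako-3 cells, -0.035 to 0.082 for EGFR, -0.16 to 0.082 for BTC, -0.88 to 0.017 for NRG4 and -0.18 to 0.12 for NRG3. In Mko-3 cells they were -0.030 to 0.015 for ERBB2, -0.34 to 0.098 for AREG, -0.18 to 0.072 for EGF and -0.19 to 0.061 for APOB. Between the clones they were -0.045 to 0.0023 for ERBB3 and -0.0062 to 0.029 for CRK. The cause of these shifts was not tested. Depth limits EREG, HBEGF, BTC and ERBB4, with at most 34 counts in any library.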
